A study of Saccharomyces cerevisiae with 18 samples.

Results

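The genes examined were those of pyrimidine nucleotide synthesis in budding yeast (Saccharomyces cerevisiae), namely URA1, URA2, URA3, URA4, URA5, URA6, URA7, URA8 and URA10, together with PPR1, which encodes the transcription activator of the pathway. They were chosen by systematic name from the table of read counts, and the choice was made with the comparison of ten1-31 against wild type already known. Their values in that comparison are therefore given as a description, with no p-value for any of them, and how many passed the threshold used for all rows is set beside the share of all rows that did. Of the 10 genes, 9 had a row among the 5143 rows of the table. URA6 (YKL024C), the gene of UMP kinase, had none and was not analysed here. The 2 groups were 3 cultures of ten1-31, a temperature-sensitive mutant of the telomere capping gene TEN1, and 3 wild-type (WT) cultures. All 6 were kept overnight at 25 °C, then diluted and grown at 34 °C for almost 5 h, and RNA depleted of ribosomal RNA was sequenced. The labels give neither the strain background nor how the allele was introduced, nor whether the cultures came from separate colonies, so the spread between libraries may be partly technical. The other 12 samples of the series are ChIP-seq libraries and were not analysed here.

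The pathway begins with carbamoyl phosphate and aspartate, closes and oxidises the ring to give orotate, joins orotate to phosphoribosyl pyrophosphate (PRPP), and decarboxylates the product to UMP, from which UTP and CTP are made. Its first enzyme is inhibited by UTP. Ppr1, a zinc cluster protein of the Gal4 type, binds upstream of URA1, URA3, URA4 and URA10 and activates them when the pathway intermediates dihydroorotate and orotate accumulate, whereas URA2 and URA5 are not under its control. URA3 is also a common selection marker in yeast strains.

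Levels are given as CPM, the counts relative to the library size after scaling by the TMM method. Library totals lay between 10469608 and 14442999 counts, and the counts of the 9 genes between 155 and 39686, the lowest being those of URA10. PPR1 and URA1 were higher in ten1-31, by 1.81-fold and 2.36-fold, and URA3, URA7 and URA5 were lower, at 0.623, 0.732 and 0.853 of the WT level. Of the 9 log2 fold changes, 5 were positive and 4 negative, with a median of 0.09, beside a median of -0.0038 over all 5133 rows tested. The quasi-likelihood test of edgeR called 5 of the 9 genes at an adjusted p-value under 0.05, 2 higher (URA1 and PPR1) and 3 lower (URA3, URA5 and URA7), while it called 50.5% of all rows, 24.3% higher and 26.2% lower. The number called was 3 (URA1, PPR1 and URA3) without ten1-31 replicate 1, without ten1-31 replicate 2 or without WT replicate 3. In these fits 1955, 1824 and 1887 of all rows were called, against 2591 with every library. The number of the 9 genes called was 4 without ten1-31 replicate 3, where URA7 dropped out (2238 of all rows). It was 5 without WT replicate 1, where URA2 took the place of URA7 (2974 of all rows). URA7 was thus called in 1 of the 6 fits that left out a library. For 6 of the 9 genes no mutant library reached into the WT range or the reverse, 3 higher (URA1, URA2 and PPR1) and 3 lower (URA3, URA5 and URA7); over all rows this held for 60.5%, 29.0% higher and 31.6% lower. As the genes were chosen with this contrast known, nothing is read from these counts, nor from which of the 9 genes a fit called. Under TMM, 48.2% of the rows called were higher in ten1-31, compared with 60.4% when libraries were scaled by their totals alone and 40.7% under upper quartile scaling. As whole cultures were measured, fewer cells with a transcript and less of it per cell cannot be told apart.

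**Figure D1:**
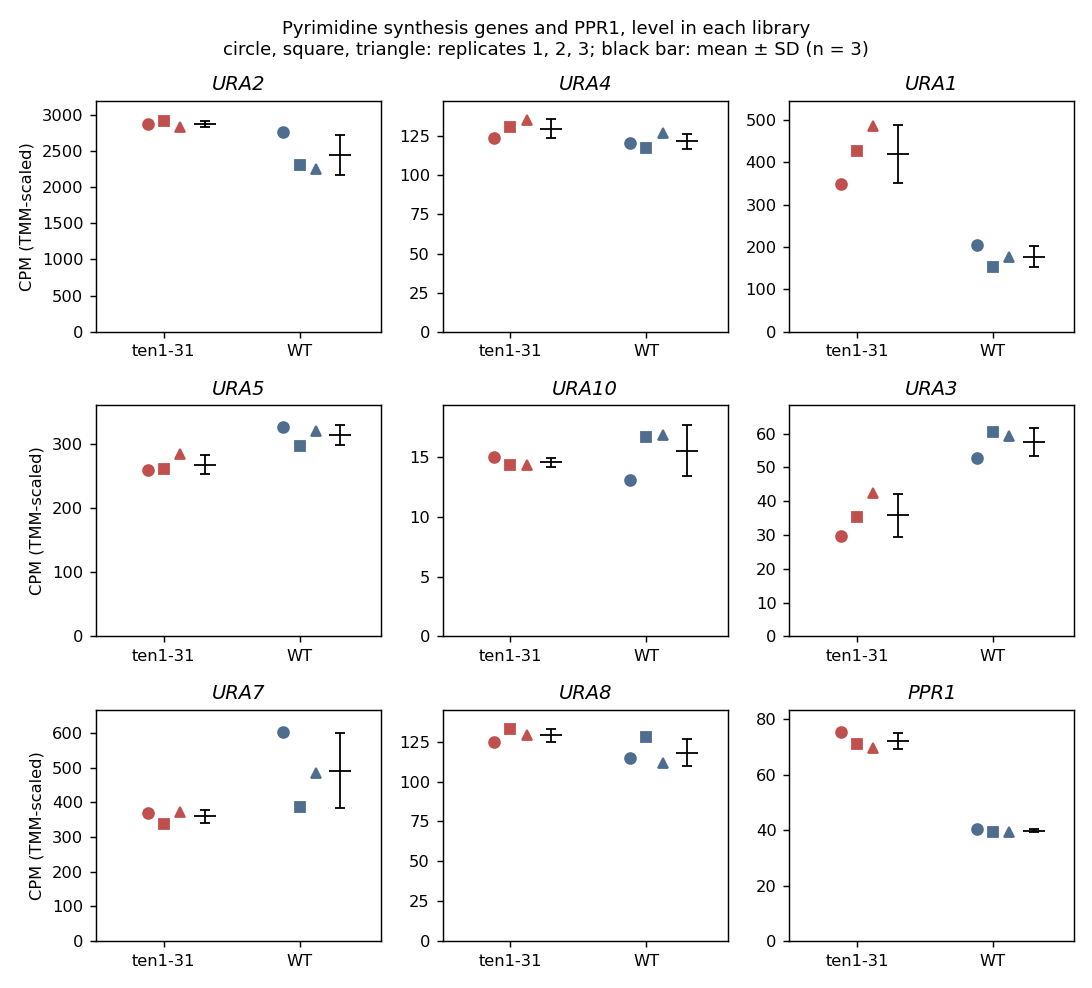
Level of the 9 genes with a row in each library, in TMM-scaled CPM on linear axes that start at 0, with ten1-31 left of WT. Symbols are single libraries and the black bars are the mean ± SD of 3; PPR1, URA1 and URA2 sit above all WT libraries in ten1-31, URA3, URA5 and URA7 below them, and URA4, URA8 and URA10 overlap.

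The early steps came first. URA2 (YJL130C, chromosome X, positions 165723 to 172367, minus strand, coordinates of build R64 here and below) encodes the bifunctional carbamoyl phosphate synthetase and aspartate transcarbamylase that commits the cell to the pathway. It was at 2868, 2916 and 2825 CPM in ten1-31 replicates 1 to 3, against 2760, 2305 and 2252 CPM in WT replicates 1 to 3. The mutant libraries lay close together and above all WT libraries, with WT replicate 1 nearest to them. The log2 fold change was 0.23 ± 0.09 (SE).

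URA4 (YLR420W, chromosome XII, positions 963785 to 964879, plus strand) encodes dihydroorotase, which closes the ring. It had 124, 131 and 135 CPM in ten1-31 and 121, 117 and 127 CPM in WT. The groups overlapped, and the log2 fold change was 0.09 ± 0.07 (SE).

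URA1 (YKL216W, chromosome XI, positions 25215 to 26159, plus strand) encodes dihydroorotate dehydrogenase, which makes orotate. It had 349, 427 and 485 CPM in ten1-31, against 205, 153 and 176 CPM in WT. The lowest mutant library was well above the highest WT library. The mean was 420.3 ± 68.1 CPM in ten1-31 and 178 ± 25.9 CPM in WT (SD, n = 3 each). The log2 fold change was 1.24 ± 0.15 (SE), and 96.4% of all rows tested had a smaller log2 fold change in size. Leaving out each library in turn gave values from 1.11 to 1.35.

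The next step, the joining of orotate to PRPP, is carried out by the products of URA5 and URA10, a major and a minor form of orotate phosphoribosyltransferase. URA5 (YML106W, chromosome XIII, positions 56773 to 57453, plus strand) had 258, 260 and 284 CPM in ten1-31, against 326, 296 and 319 CPM in WT. All mutant libraries were below all WT libraries, by a small margin, with a log2 fold change of -0.23 ± 0.07 (SE). URA10 (YMR271C, chromosome XIII, positions 806865 to 807548, minus strand) had 15.003, 14.4 and 14.3 CPM in ten1-31 and 13.1, 16.7 and 16.9 CPM in WT. These overlapped, and the log2 fold change was -0.09 ± 0.12 (SE). Per kilobase of coding length, URA10 stood at 5.44 ± 0.387% of the URA5 level in ten1-31 and 4.96 ± 0.848% in WT (SD, n = 3 each). Summing the counts of this paralog pair gave a log2 fold change of -0.22 ± 0.07 (SE), beside -0.23 for URA5 alone.

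URA3 (YEL021W, chromosome V, positions 116167 to 116970, plus strand) encodes OMP decarboxylase, which yields UMP. It had 29.6, 35.4 and 42.4 CPM in ten1-31, against 52.9, 60.6 and 59.3 CPM in WT. Every mutant library was below every WT library, and the mutant libraries were the more spread. The mean was 35.8 ± 6.42 CPM in ten1-31 and 57.6 ± 4.13 CPM in WT (SD, n = 3 each). The log2 fold change was -0.68 ± 0.13 (SE), with a range from -0.84 to -0.57 when each library was left out in turn.

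URA1 and URA3, both targets of Ppr1, thus lay on opposite sides of the WT level. The ratio of URA1 to URA3, each per length, does not depend on the scaling. It was 10.04, 10.3 and 9.73 in ten1-31, against 3.30, 2.15 and 2.52 in WT. The mutant ratios were close to each other, and URA1 and URA3 were both lowest in ten1-31 replicate 1 and both highest in ten1-31 replicate 3. URA4 had this order too, while URA10 and PPR1 had the reverse. Outside the pathway, TRP1 and HIS3 also had this order, and FUR1 and PRS3 the reverse, so it is not particular to targets of Ppr1. The other pair of targets, URA4 and URA10, overlapped between the genotypes.

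The last step examined, from UTP to CTP, is catalysed by the CTP synthases encoded by URA7 (major) and URA8 (minor). URA7 (YBL039C, chromosome II, positions 143989 to 145728, minus strand) had 370, 338 and 372 CPM in ten1-31, against 604, 386 and 485 CPM in WT. The groups did not overlap, but WT replicate 2 was near the mutant libraries and WT replicate 1 far above them. The log2 fold change was -0.45 ± 0.15 (SE), and it was -0.27 without WT replicate 1 and -0.60 without WT replicate 2. URA8 (YJR103W, chromosome X, positions 620754 to 622490, plus strand) had 125, 133 and 129 CPM in ten1-31 and 115, 128 and 112 CPM in WT, overlapping, with a log2 fold change of 0.13 ± 0.08 (SE). The level of URA8 per length relative to URA7 was 0.338, 0.395 and 0.348 in ten1-31 and 0.191, 0.332 and 0.231 in WT, so the lowest mutant ratio was only just above the highest WT ratio. Counted as a sum, URA7 and URA8 had a log2 fold change of -0.32 ± 0.12 (SE).

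PPR1 (YLR014C, chromosome XII, positions 172268 to 174982, minus strand) encodes the activator. Its row held 965, 768 and 978 counts in ten1-31, against 553, 455 and 516 counts in WT. On the CPM scale this was 75.4, 71.3 and 69.6 in ten1-31 and 40.4, 39.5 and 39.4 in WT. All mutant libraries were above all WT libraries. The WT libraries were closer together than is typical, with an SD of 1.36% of the mean, beside a median of 8.99% over all rows tested. Their spread is therefore a poor measure for the gap between the genotypes. The mean was 72.1 ± 2.98 CPM in ten1-31 and 39.8 ± 0.539 CPM in WT (SD, n = 3 each). The log2 fold change was 0.86 ± 0.07 (SE), and 91.0% of all rows tested had a smaller one in size. Leaving out each library in turn gave 0.82 to 0.87. The higher PPR1 level stood beside a higher level of 1 of its 4 targets (URA1), a lower level of another (URA3) and overlapping levels of URA4 and URA10.

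**Figure D2:**
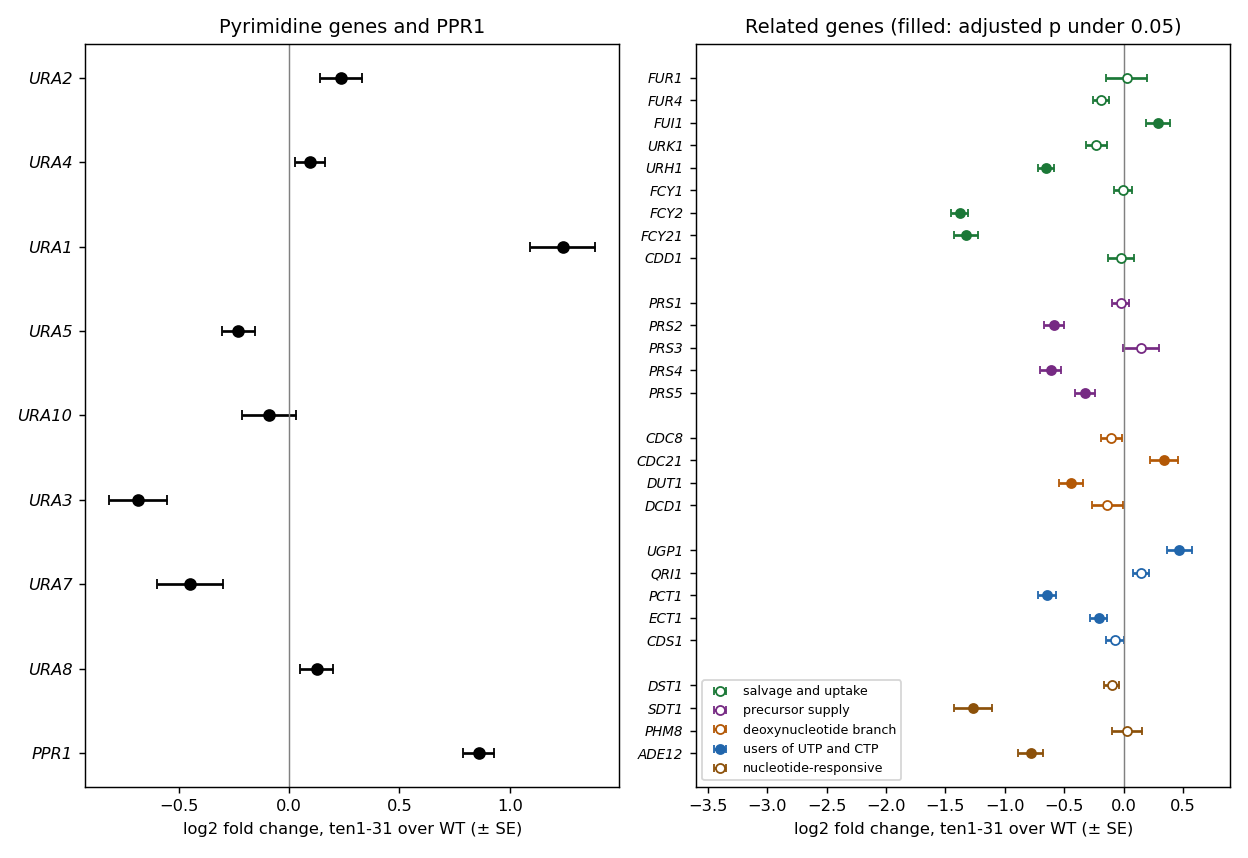
Log2 fold change of ten1-31 over WT with its SE, for the 9 genes in pathway order with PPR1 last (left) and for 27 related genes by list (right, where filled symbols mark an edgeR adjusted p-value under 0.05). The 9 genes lie on both sides of 0, from URA3 at -0.68 to URA1 at 1.24, while FCY2, FCY21 and SDT1 lie below -1.

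Levels of the genes were compared with each other per kilobase of coding length. In ten1-31 the order was URA1 (445 ± 72.0 CPM per kb), URA2 (432 ± 6.82), URA5 (393 ± 21.1), URA7 (207 ± 10.9), URA4 (119 ± 5.39), URA8 (74.3 ± 2.36), URA3 (44.5 ± 7.98), PPR1 (26.6 ± 1.10) and URA10 (21.3 ± 0.557), each with its SD over 3 libraries. The range of URA1 overlapped those of URA2 and URA5, while the other neighbours in the order did not overlap. In WT the order was URA5 (460.5 ± 22.8 CPM per kb), URA2 (367 ± 42.0), URA7 (282 ± 62.7), URA1 (188 ± 27.4), URA4 (111 ± 4.53), URA3 (71.6 ± 5.13), URA8 (68.1 ± 4.93), URA10 (22.7 ± 3.13) and PPR1 (14.6 ± 0.199). There URA2 overlapped URA7, and URA3 overlapped URA8. URA1 therefore held the top place in ten1-31 and the fourth in WT, and PPR1 changed places with URA10 at the bottom. PPR1 was among the least abundant transcripts per length in both genotypes, above 17.9% of the rows tested in ten1-31 and above 6.90% in WT.

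**Figure D3:**
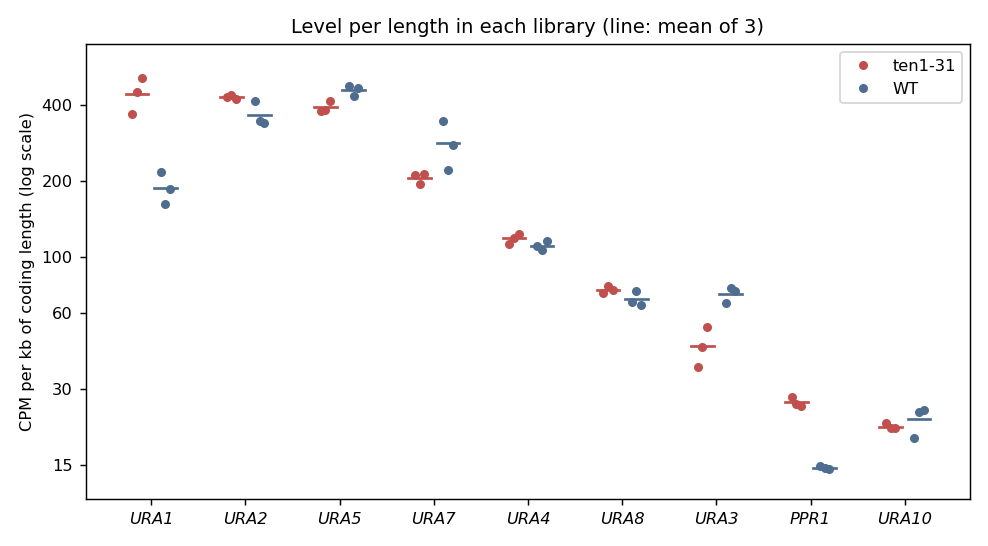
CPM per kilobase of coding length of each gene on a log axis, ordered by the ten1-31 mean, with points for single libraries and lines for means of 3 (ten1-31 left of WT for each gene). URA1 leads in ten1-31 at 445 CPM per kb and lies at 188 in WT, while PPR1 lies at 26.6 in ten1-31 and 14.6 in WT.

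Taken as a sum over the 8 enzyme genes with a row, the level per length was 1637, 1727 and 1841 CPM per kb in ten1-31 and 1719, 1446 and 1551 CPM per kb in WT, which overlapped. URA1 held 25.5 ± 2.70% of it in ten1-31 and 11.9 ± 0.706% in WT, URA5 held 22.6 ± 0.542% in ten1-31 and 29.4 ± 1.34% in WT, and URA3 held 2.55 ± 0.309% in ten1-31 and 4.60 ± 0.705% in WT (SD, n = 3 each). URA7 held 11.9 ± 0.921% in ten1-31 and 17.8 ± 2.43% in WT (SD, n = 3 each), and its libraries did not overlap. URA2 held 25.0 ± 1.68% in ten1-31 and 23.3 ± 1.29% in WT, with overlapping libraries. These are shares of the same sum, so a larger share of URA1 by itself makes the others smaller. Without URA1 the sum was 1290 ± 32.5 CPM per kb in ten1-31 and 1383.5 ± 110 CPM per kb in WT (SD, n = 3 each), with overlapping libraries.

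PPR1 lies on the same arm of chromosome XII as TEN1, with 4465 bp between the nearest ends of their coding regions. TEN1 (YLR010C) itself had 394, 319 and 419 counts in ten1-31 and 97, 108 and 132 in WT, or 30.1 ± 0.630 CPM in ten1-31 and 8.85 ± 1.57 CPM in WT (SD, n = 3 each). The transcript of the mutated gene was thus higher in ten1-31 (log2 fold change 1.77, SE 0.13; adjusted p = 7.15e-05 in edgeR), and its level does not check the allele, since a gene with such a mutation can still be transcribed. Between TEN1 and PPR1 the annotation has 3 protein-coding genes, of which LOT6 had a row and YLR012C and GAT3 had none. LOT6 (YLR011W), which encodes a quinone reductase, was at 23.0, 20.8 and 19.4 CPM in ten1-31, against 9.93, 12.3 and 11.4 CPM in WT. Its libraries did not overlap, and the log2 fold change was 0.91 ± 0.12 (SE; edgeR, adjusted p = 0.000666). On the far side of PPR1, 244 bp away and transcribed in the opposite direction, lies BRE2 (YLR015W), a subunit gene of the COMPASS histone methyltransferase. BRE2 was at 64.8, 61.0 and 60.8 CPM in ten1-31 and 51.2, 46.6 and 52.7 CPM in WT, a log2 ratio of 0.31 ± 0.08 (SE) and an edgeR adjusted p of 0.0123. The BRE2 call did not hold without ten1-31 replicate 1 (log2 fold change 0.27; edgeR, adjusted p = 0.0652).

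The 4 rows in a stretch from TEN1 to BRE2 were thus all higher in ten1-31, a stretch picked out after its values were seen. The genes on either side of it were not. Toward the left, RLP24 was not called (log2 fold change -0.02, SE 0.13; adjusted p = 0.933 in edgeR) and PAM18 was called lower (log2 fold change -0.29, SE 0.09; adjusted p = 0.0275 in edgeR). Next to BRE2 on the right, PML1, a gene of pre-mRNA retention and splicing, was at 18.9 ± 1.73 CPM in ten1-31 and 33.6 ± 2.47 CPM in WT (SD, n = 3 each), giving a log2 ratio of -0.83 ± 0.10 (SE) and an edgeR adjusted p of 0.000523. POM34, PSR2 and YEH2 further right fell, with log2 fold changes of -0.47, -0.45 and -0.23 (edgeR, adjusted p = 0.00217, 0.00181 and 0.0254), and MEU1 had a log2 fold change of -0.30 (edgeR, adjusted p = 0.0501). In all, of the 9 other genes with a row from YLR008C to YLR020C, 2 were called higher, 5 lower and 2 were not called. Of all rows, 24.3% were called higher and 26.2% lower. The calls of PAM18 and YEH2 each held in 3 of the 6 fits that left out a library; without ten1-31 replicate 2, for example, the adjusted p of edgeR was 0.117 for PAM18 and 0.104 for YEH2. The genes of this region alternate between strands; the library kit was strand-specific, but the strand setting of the counting is not given in the sources used here.

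**Figure D4:**
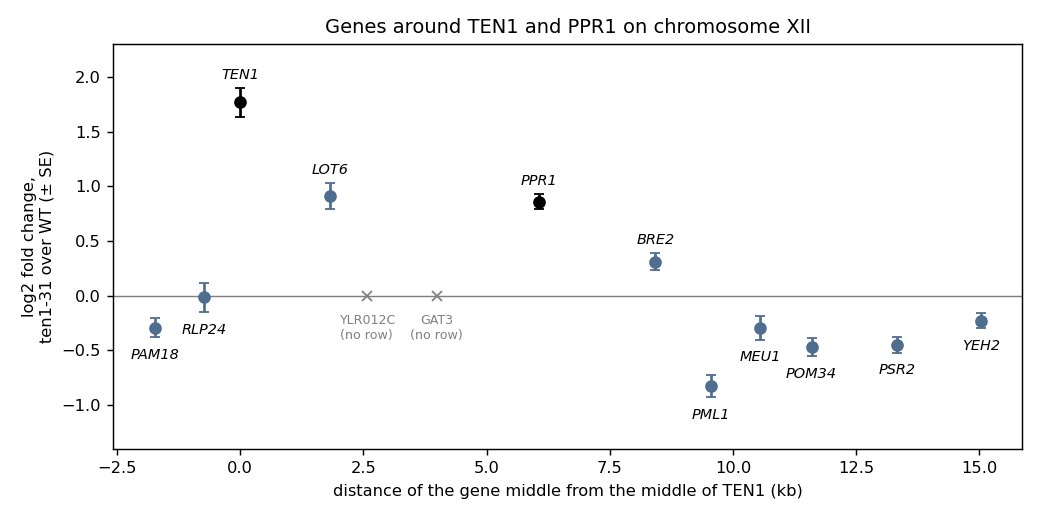
Log2 fold change of ten1-31 over WT with its SE for the genes around TEN1 and PPR1, against the distance of each gene's middle from the middle of TEN1 in kb, with crosses for genes without a row. TEN1, LOT6, PPR1 and BRE2 lie above 0 (1.77, 0.91, 0.86 and 0.31), and the genes to the left and right lie at or below 0.

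Genes of linked steps were then examined in 5 lists of 30 genes in all, of which 27 had a row. FCY2, FCY21 and SDT1 fell more than 2-fold, and the largest called rise was that of UGP1, at a log2 fold change of 0.47. Of the 27 genes, 11 were called lower and 3 higher in ten1-31, beside 26.2% and 24.3% of all rows, and their median log2 fold change was -0.14. The same shares of all rows stand beside the counts of each list below, and no list was tested as a set.

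Salvage and uptake genes let the cell use bases and nucleosides from outside or from breakdown. Of 10 listed, 9 had a row, with 3 called lower, 1 higher and a median log2 fold change of -0.19. FCY2, the purine and cytosine permease gene, had 264, 261 and 250.4 CPM in ten1-31, against 704, 636 and 677 CPM in WT, a log2 ratio of -1.38 ± 0.07 (SE) and an edgeR adjusted p of 2.84e-05. Its relative FCY21 was at 26.9 ± 0.786 CPM in ten1-31 and 67.4 ± 8.43 CPM in WT (SD, n = 3 each; log2 fold change -1.33; edgeR, adjusted p = 8.87e-05). FCY22, a further close relative, had no row, and the division of reads within this family is uncertain. URH1, which encodes uridine nucleosidase, was at 58.5 ± 1.05 CPM in ten1-31 and 92.2 ± 3.12 CPM in WT (SD, n = 3 each; log2 fold change -0.66; edgeR, adjusted p = 0.000288). The uracil phosphoribosyltransferase gene FUR1 was at 281 ± 55.0 CPM in ten1-31 and 276 ± 48.4 CPM in WT, and the uracil permease gene FUR4 at 83.4 ± 3.11 CPM in ten1-31 and 95.0 ± 2.88 CPM in WT (SD, n = 3 each; edgeR, adjusted p = 0.911 and 0.0510). The FUR1 libraries were widely spread in both genotypes. The uridine permease gene FUI1 was the one called higher, at 248 ± 26.7 CPM in ten1-31 and 203 ± 15.3 CPM in WT (SD, n = 3 each; log2 fold change 0.29; edgeR, adjusted p = 0.0425). Its libraries overlapped, and the call held in 2 of the 6 fits that left out a library, with an adjusted p of up to 0.167 in edgeR (without ten1-31 replicate 2).

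Precursor supply comprised the PRPP synthetases (PRS1 to PRS5), which make the sugar phosphate that is joined to orotate. All 5 genes had a row. Of them 3 were called lower and 0 higher, beside 26.2% and 24.3% of all rows. Their median log2 fold change was -0.33. As the list was narrowed to these genes after its values were seen, nothing is read from the count. PRS2 was at 63.0 ± 5.22 CPM in ten1-31 and 94.6 ± 2.38 CPM in WT, and PRS4 at 40.5 ± 1.41 CPM in ten1-31 and 62.0 ± 6.13 CPM in WT (SD, n = 3 each). Their log2 fold changes were -0.59 and -0.61 (edgeR, adjusted p = 0.000923 and 0.00114), and both calls held in all 6 fits that left out a library. PRS5 was at 216 ± 1.62 CPM in ten1-31 and 271 ± 25.1 CPM in WT (SD, n = 3 each; log2 fold change -0.33; edgeR, adjusted p = 0.0125). The PRS5 call did not hold without ten1-31 replicate 1 (edgeR, adjusted p = 0.0523) or without ten1-31 replicate 2 (edgeR, adjusted p = 0.0617). PRS1 and PRS3 had log2 fold changes of -0.02 and 0.15 (edgeR, adjusted p = 0.805 and 0.435).

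In the branch to deoxynucleotides, 4 of 5 genes had a row (YNK1 had none), with 1 called lower, 1 higher and a median log2 fold change of -0.12. DUT1, the dUTPase gene, was at 36.9 ± 2.90 CPM in ten1-31 and 50.2 ± 4.88 CPM in WT (SD, n = 3 each; log2 fold change -0.44; edgeR, adjusted p = 0.00726). CDC21, the thymidylate synthase gene, was at 68.4 ± 3.12 CPM in ten1-31 and 54.0 ± 8.79 CPM in WT (SD, n = 3 each; log2 fold change 0.34; edgeR, adjusted p = 0.0428). The CDC21 call held in 1 of the 6 fits that left out a library, with an adjusted p of up to 0.143 in edgeR (without WT replicate 3). CDC8 and DCD1 were not called.

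Among users of UTP and CTP, all 5 genes had a row, with 2 called lower, 1 higher and a median log2 fold change of -0.08. UGP1, which makes UDP-glucose, was at 732 ± 23.7 CPM in ten1-31 and 529 ± 74.2 CPM in WT (SD, n = 3 each; edgeR, adjusted p = 0.00787). PCT1, which spends CTP in phosphatidylcholine synthesis, was at 64.4 ± 2.75 CPM in ten1-31 and 101 ± 5.85 CPM in WT (SD, n = 3 each; log2 fold change -0.65; edgeR, adjusted p = 0.000478). ECT1, its counterpart for phosphatidylethanolamine, had a log2 fold change of -0.21 (edgeR, adjusted p = 0.0405), a call that held in 1 of the 6 fits that left out a library (adjusted p of up to 0.164 in edgeR, without ten1-31 replicate 2). QRI1 and CDS1 were not called.

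The last list held genes that respond to nucleotide supply or were found through it, of which 4 of 5 had a row (IMD2 had none); 2 were called lower, 0 higher, and the median log2 fold change was -0.44. SDT1, a pyrimidine nucleotidase gene, had 43.6, 48.8 and 46.1 CPM in ten1-31, against 85.6, 135 and 114 CPM in WT. The WT libraries were spread but all above the mutant ones, with a log2 ratio of -1.27 ± 0.16 (SE) and an edgeR adjusted p of 0.000577. ADE12, an enzyme gene of AMP synthesis, was at 300 ± 6.39 CPM in ten1-31 and 516 ± 74.1 CPM in WT (SD, n = 3 each; log2 fold change -0.78; edgeR, adjusted p = 0.000878). DST1, known also as PPR2 and encoding the elongation factor TFIIS, was at 129 ± 5.47 CPM in ten1-31 and 139 ± 0.694 CPM in WT (SD, n = 3 each; edgeR, adjusted p = 0.227), and PHM8 was not called.

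The rows most like PPR1 across the 6 libraries were sought among 4933 rows with a mean of at least 10 CPM, by the root mean square difference of log2 CPM after centring each row on its own mean. The nearest were STI1, a co-chaperone gene of Hsp90, at 0.0246, FLC2 at 0.0375 and IQG1, a gene of the actomyosin ring, at 0.0430 on the log2 scale. STI1 had 873, 817 and 814 CPM in ten1-31 and 468, 468 and 442 CPM in WT. In the mean profile of URA1, URA3, URA4 and URA10, URA1 and URA3 pull in opposite directions. The rows nearest to it were PIB1, MLC2 and SSU72, with differences of 0.0365, 0.0368 and 0.0376. Their log2 fold changes were 0.09, 0.14 and 0.13. As they were picked for likeness over these same libraries, no test of them is given.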

How the data were processed

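The authors deposited whole-number read counts for each feature and RNA-seq library in a single table; the unit was read from the values. The submitters' processing notes name TopHat2, Bowtie2, featureCounts and the build R64 (sacCer3). Strand setting, annotation and row filter are not given in the sources used here, so counts of antisense or near-identical genes are uncertain. Symbols, coordinates and lengths came from the RefSeq gene table of R64, which matched 5112 of 5143 rows.

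Counts were compared in edgeR 4.0.16 by its quasi-likelihood test (R 4.3.3; TMM scaling; filterByExpr with minimum count 10 and minimum total 15, leaving 5133 rows), with Benjamini-Hochberg adjustment over all rows and a threshold of 0.05. The SE is the log2 fold change divided by the square root of F. Fold changes are ten1-31 over WT. The alternatives were other scalings, filters and thresholds, DESeq2 1.42.0, limma-voom (limma 3.58.1), a replicate block, summed paralogs, and leaving out each library.

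The genes and lists were chosen with earlier results of these data known. Named were the 10 genes, TEN1, rows from YLR008C to YLR020C, up to 3 called genes with the smallest p per list, called neighbours changed at least 2-fold and the nearest profiles; others were named after their values were seen. The precursor supply list was narrowed to the PRPP synthetases after its values were seen; what was taken out is neither counted nor reported here.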

Additional observations from a re-analysis of the deposited data

How the results depend on the processing

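The 9 pyrimidine genes kept the sign of their log2 fold change under every alternative run except that URA8 (0.13) became -0.32 when summed with URA7. Their median, 0.09, was 0.044 with upper quartile scaling and 0.17 with library size only, which shift all rows, and 0.05 to 0.12 when each library was left out. The number of the 9 called was 5, and 3 at an adjusted p under 0.01, 1 with at least a 2-fold change, and 3 to 5 with a library left out. It was 4 with library size only (URA1, URA2 and PPR1 higher, URA3 lower) and 6 with DESeq2, which added URA2. As above, nothing is read from the calls of these genes. For all rows, 2591 calls became 1660 and 319 under these thresholds, smaller by construction, and 1824 to 2974 with a library left out. Of the 27 related genes, 14 were called, 3 with at least a 2-fold change and 10 to 15 with a library left out. URA2 held 23.3% of the summed enzyme level per length in WT, and 65.3% when CPM was not divided by length, since it is the longest gene; it was 22.9% to 24.1% with a WT library left out. Among 462 refitted values of other named genes, 26 lost a call, 4 gained one and 0 called ones changed sign; RLP24, not called, was at -0.02 and reached 0.075 without WT replicate 1.

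Same-numbered libraries deviated together with correlations of 0.20, 0.21 and 0.087. Those of unlike-numbered libraries were all lower, from -0.23 to 0.053. The deviations were taken from the mean of each genotype. Positive values for same-numbered libraries therefore push the others down, and the lower values are not separate evidence of pairing. The labels name no batch, and the main fit did not take the numbers as pairs, so whether the cultures were paired is not known. A fit with the number as a replicate block called 2630 rows, 5 of the 9 genes and 13 of the related genes. In that fit the SE was 0.097 for URA3 and 0.110 for URA7, against 0.132 and 0.151 in the main fit. URA10, with 155 to 221 counts per library, is the gene most limited by depth, and the precision rests on 3 libraries per genotype.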

Other observations

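URA3 is a selection marker in many strains, and other such markers were listed beside it. All 7 had a row, with 5 called lower, 1 higher and 1 not called, beside 26.2% lower and 24.3% higher of all rows. TRP1 was at 2396 ± 93.4 CPM in ten1-31 and 31.8 ± 2.92 CPM in WT (SD, n = 3 each), with a log2 ratio of 6.24 (adjusted p = 7.17e-08 in edgeR), beyond the largest difference among the pyrimidine genes (URA1). LYS2 and HIS3 fell, with log2 fold changes of -1.24 and -1.26 (edgeR, adjusted p = 3.83e-05 and 6.28e-05), and LEU2 was at 100.5 ± 6.31 CPM in ten1-31 and 102 ± 10.7 CPM in WT (SD, n = 3 each; edgeR, adjusted p = 0.832). URA3, at 35.8 ± 6.42 CPM in ten1-31 and 57.6 ± 4.13 CPM in WT (SD, n = 3 each), was detected in every library of both genotypes. Detection does not show whether URA3 is intact or the same in both genotypes, and the labels do not give this. The limit also applies to the ratio of URA1 to URA3.

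The nearest coding neighbours of the 10 genes numbered 20, of which 18 had a row, with 4 called higher and 5 lower, beside 24.3% and 26.2% of all rows. SCS7, beside URA10, had a log2 ratio of -1.14 ± 0.12 (SE) and an edgeR adjusted p of 0.000330, while URA10 itself overlapped between the genotypes. OXP1, beside URA1 and named after its values were seen, was at 250.4 ± 11.1 CPM in ten1-31 and 152 ± 5.29 CPM in WT (SD, n = 3 each), giving a log2 ratio of 0.72 ± 0.07 (SE) and an edgeR adjusted p of 0.000205. Both neighbours of URA5, PML39 and SEC65, also named afterwards, fell, with log2 fold changes of -0.80 and -0.44 (edgeR, adjusted p = 0.00263 and 0.00218). SOD1 beside URA8 was called higher (log2 fold change 0.68, edgeR adjusted p = 0.000330), and RRN9 beside URA10 lower (-0.57, edgeR adjusted p = 0.000564). URA8 and URA10 themselves overlapped. TIM9 beside URA3 was called lower (-0.35, edgeR adjusted p = 0.0116), but not without WT replicate 3. Whether neighbours change together was not tested.

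FUR1, PRS3 and DCD1, all on chromosome VIII, had the widest spread between ten1-31 libraries among the 27 related genes, an observation made after seeing the values. FUR1 was at 331, 290 and 222 CPM in ten1-31 replicates 1 to 3, PRS3 at 300, 257 and 195 CPM and DCD1 at 47.5, 41.7 and 33.0 CPM. In all 3 genes replicate 1 was highest and replicate 3 lowest. In WT, FUR1 was at 321, 225 and 282 CPM, PRS3 at 224, 209 and 246 CPM and DCD1 at 44.2, 43.7 and 46.2 CPM. None of the 9 pyrimidine genes with a row lies on that chromosome.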
